A study of Mus musculus with 6 samples.

Results

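The canonical Wnt pathway was followed here through 10 genes that it induces, many of which then restrain it: Axin2, Lgr5, Znrf3, Rnf43, Tnfrsf19, Nkd1, Notum, Lef1, Sp5 and Tcf7. They were chosen by gene symbol, were found once each among the 54532 genes of the table, and all 10 passed the filter on low counts. The libraries came from mouse pancreatic buds taken at E12.5 (mid-gestation) and cultured for 2 days in M199 medium with 10% fetal bovine serum and 0.1% DMSO. The Control group (3 libraries) had this vehicle alone, and the TBZ group (3 libraries) also had 0.1 µM TBZ (tetrabenazine), an inhibitor of the vesicular monoamine transporter VMAT2, from start to end of the culture; the study asked what this transporter does in the growing pancreas. No strain, genotype or number of buds per library is stated, and both groups are bulk tissue of epithelium with its mesenchyme. In such bulk RNA, fewer cells of a type and less RNA per cell cannot be told apart. Whether the replicates are separate cultures is not stated, and a p-value here reflects the spread among these libraries alone, which may be technical.

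Wnt ligands bind Frizzled and LRP receptors at the cell surface and stop the destruction complex from degrading beta-catenin, which then enters the nucleus and activates genes together with TCF/LEF factors. Several of the genes so induced act back on the pathway: Axin2 rebuilds the destruction complex, Znrf3 and Rnf43 remove Frizzled from the membrane, Nkd1 binds Dishevelled, and Notum inactivates the ligand. Because they are induced in many tissues, Axin2 and its companions are widely read as a gauge of Wnt activity. In the developing pancreas, Wnt signalling is known to act on growth of the epithelium and on its mesenchyme.

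No member changed past the threshold in TBZ buds. With the edgeR quasi-likelihood test, 0 of 10 had an adjusted p under 0.05, where 0.187% of the 18226 tested genes did, and the lowest adjusted p among the members was 0.257, for Znrf3. At an unadjusted p under 0.05 there were 4 members, all lower in TBZ (4.54% of tested genes were lower and 5.08% higher by that rule), and DESeq2 called 0 of 10 (1.43% of the genes it adjusted). The authors' deposited table gives nearly the same log2 fold changes and adjusted p-values for the 10 members as DESeq2 does here. It therefore adds no separate test, and has none of the 10 under 0.05 (0.767% of its genes), with Rnf43 closest at an adjusted p of 0.0888. The log2 fold change was negative in 9 of 10 members, as it was in 49.9% of tested genes, with a median of -0.16 against 0.00 over all tested genes. This count rested on control replicate 3: without that library it was 5 of 10, where 48.5% of tested genes were negative. In 4 members, Axin2, Znrf3, Rnf43 and Tnfrsf19, each TBZ library lay below each control library in counts per megaread scaled by TMM (CPM), as in 7.03% of tested genes. Those 4 were the same with FPKM, with unscaled CPM and with median-of-ratios scaling. All of these rescale the same counts, so they hardly test the separation.

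**Figure D1:**
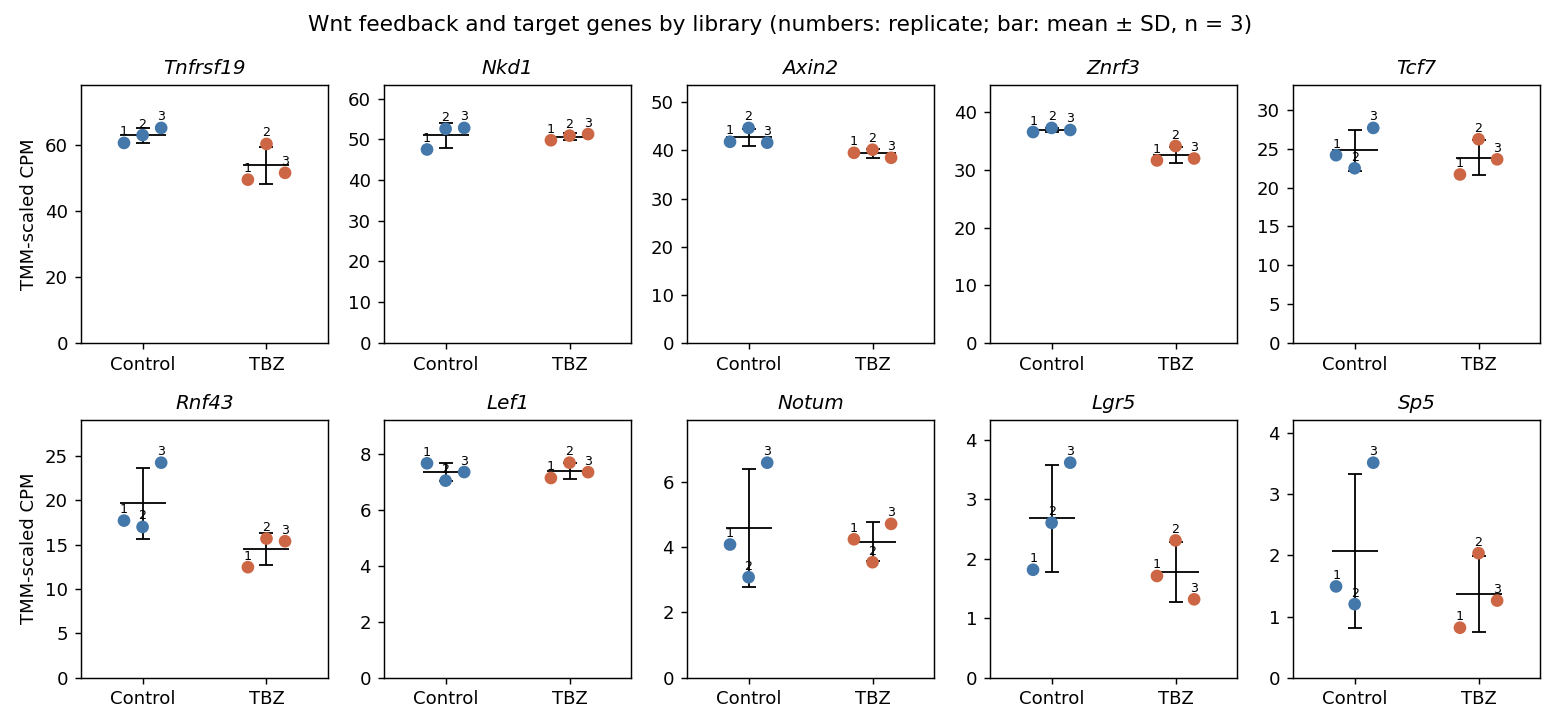
Normalised read counts (TMM-scaled CPM, y axis from 0) of the 10 genes in the 3 control (blue) and 3 TBZ (orange) libraries. Numbers are replicates, and bars are means with SD. Axin2, Znrf3, Rnf43 and Tnfrsf19 have all TBZ points below all control points, and control replicate 3 is the highest point in 7 panels.

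Levels between genes were compared per length, as FPKM (fragments per kilobase of gene length, scaled to the library total). Tnfrsf19 had the highest level at 12.3 ± 1.34 FPKM (SD, n = 6 libraries of both groups), followed by Nkd1 (11.1), Tcf7 (9.23), Axin2 (7.43), Znrf3 (4.39), Rnf43 (2.60), Notum (1.81), Lef1 (0.836), Sp5 (0.817) and Lgr5 (0.216). Not every neighbour in this order was separate. The ranges over the 6 libraries overlapped between Tnfrsf19 and Nkd1, Nkd1 and Tcf7, Rnf43 and Notum, and Lef1 and Sp5, while the other neighbours did not overlap. The mean levels of Lef1, Sp5 and Lgr5 were under 1 FPKM, and Lgr5, which marks Wnt-dependent stem cells in the adult intestine, rested on 47 to 151 reads per library.

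Values by library are given below in the order of replicates 1 to 3. The negative regulators at the membrane come first. Znrf3 encodes a transmembrane E3 ubiquitin ligase that sends Frizzled receptors to degradation. Znrf3 was measured at 36.6, 37.3 and 37.0 CPM in the controls and at 31.7, 34.2 and 32.0 CPM in the TBZ libraries. The controls lay close together and all TBZ libraries were under them, with TBZ replicate 2 nearest. This gave a log2 fold change of -0.18 ± 0.05 (SE; 95% interval -0.29 to -0.07; edgeR unadjusted p = 0.00519, adjusted p = 0.257). The lowest control was 7.12% above the highest TBZ library, against a counting error of 3.61% for that ratio.

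Rnf43, the paralogue of Znrf3 with the same action on Frizzled, had 17.7, 17.0 and 24.2 CPM in the controls and 12.46, 15.7 and 15.4 CPM in the TBZ libraries. Control replicate 3 stood well above the others and TBZ replicate 1 below them. For Rnf43 the log2 fold change was -0.44 ± 0.14 (SE; 95% interval -0.76 to -0.11; edgeR adjusted p = 0.368). Without control replicate 3 it was -0.26 (edgeR adjusted p = 0.487). Rnf43 passed in 1 of its 14 alternative fits, edgeR with no expression filter (adjusted p = 0.0126), where 1.42% of genes passed.

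Lgr5 encodes a receptor for R-spondins, which clear Znrf3 and Rnf43 from the membrane and so raise Wnt signalling. Lgr5 was measured at 1.81, 2.60 and 3.61 CPM in the controls and at 1.71, 2.31 and 1.32 CPM in the TBZ libraries. The groups overlapped, since TBZ replicate 2 lay above control replicate 1. The log2 fold change of -0.58 ± 0.28 (SE; 95% interval -1.22 to 0.06; edgeR adjusted p = 0.558) was -0.31 without control replicate 3. Counting error is part of this spread: the 47 reads of TBZ replicate 3 have an exact Poisson interval of 34.5 to 62.5 and the 151 reads of control replicate 3 one of 128 to 177, which covers counting error only.

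Tnfrsf19, also called Troy, encodes a receptor of the tumour necrosis factor receptor family whose gene is a Wnt target in several tissues. Tnfrsf19 was measured at 60.7, 63.0 and 65.2 CPM in the controls and at 49.5, 60.4 and 51.6 CPM in the TBZ libraries. TBZ replicates 1 and 3 were clearly lower, while control replicate 1 was 0.518% above TBZ replicate 2, which is inside the counting error of 2.75% for that ratio. Between the groups the log2 fold change was -0.23 ± 0.07 (SE; 95% interval -0.39 to -0.06; edgeR adjusted p = 0.345), and it too passed with no expression filter (adjusted p = 0.0359).

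Among feedback genes inside the cell, Axin2 encodes a scaffold of the destruction complex. Axin2 was measured at 41.8, 44.7 and 41.6 CPM in the controls and at 39.5, 40.2 and 38.5 CPM in the TBZ libraries. The groups did not overlap, and the difference was small. Its log2 fold change was -0.12 ± 0.05 (SE; 95% interval -0.23 to -0.01; edgeR unadjusted p = 0.0395, adjusted p = 0.491). The lowest control was 3.65% above the highest TBZ library, about the counting error of 3.44% for that ratio.

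Nkd1, an antagonist that binds Dishevelled, had a log2 fold change near 0. Nkd1 was measured at 47.5, 52.6 and 52.8 CPM in the controls and at 49.7, 50.9 and 51.3 CPM in the TBZ libraries. All TBZ libraries lay within the range of the controls. With edgeR, the log2 fold change was -0.01 ± 0.05 (SE; edgeR adjusted p = 0.977), and its 95% interval of -0.13 to 0.11 is about as wide as that of Axin2.

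Notum, a secreted enzyme that removes the lipid Wnt needs to bind Frizzled, had 4.08, 3.08 and 6.58 CPM in the controls and 4.24, 3.53 and 4.71 CPM in the TBZ libraries. The TBZ libraries lay inside the wide range of the controls, which control replicate 3 set. The log2 fold change was -0.13 ± 0.25 (SE; 95% interval -0.71 to 0.44; edgeR adjusted p = 0.905) and turned to 0.22 without control replicate 3. An antisense gene, Notumos, overlaps Notum and held 13 to 28 reads per library (9.77% of the reads of Notum). The library kit does not mark strand, so reads of the 2 cannot be told apart where they overlap.

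The transcription factors differed in how steady they were. Lef1, a nuclear partner of beta-catenin, had 7.66, 7.04 and 7.35 CPM in the controls and 7.14, 7.68 and 7.34 CPM in the TBZ libraries. The groups covered nearly the same range, and the highest library was 1.09 times the lowest, the smallest such ratio of the 10 members. Its log2 fold change was 0.01 ± 0.09 (SE; 95% interval -0.20 to 0.22; edgeR adjusted p = 0.990).

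Tcf7, which encodes the related factor TCF1, had 24.2, 22.5 and 27.7 CPM in the controls and 21.7, 26.2 and 23.6 CPM in the TBZ libraries. The groups overlapped, with control replicate 3 high again. For Tcf7 the log2 fold change was -0.05 ± 0.09 (SE; 95% interval -0.27 to 0.16; edgeR adjusted p = 0.894) and 0.03 without control replicate 3.

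Sp5, a zinc finger factor induced directly by beta-catenin in many cell types, spread the most. Sp5 was measured at 1.49, 1.203 and 3.52 CPM in the controls and at 0.818, 2.04 and 1.26 CPM in the TBZ libraries, so that the highest library was 4.30 times the lowest. Control replicate 3 was 2.61 times the mean of the other controls, and its 147 reads (exact Poisson interval 124 to 173) do not overlap the intervals of the other controls. The log2 fold change of -0.58 ± 0.44 (SE; 95% interval -1.58 to 0.42; edgeR adjusted p = 0.719) became 0.03 without that library, so the difference between the groups rested on it.

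**Figure D2:**
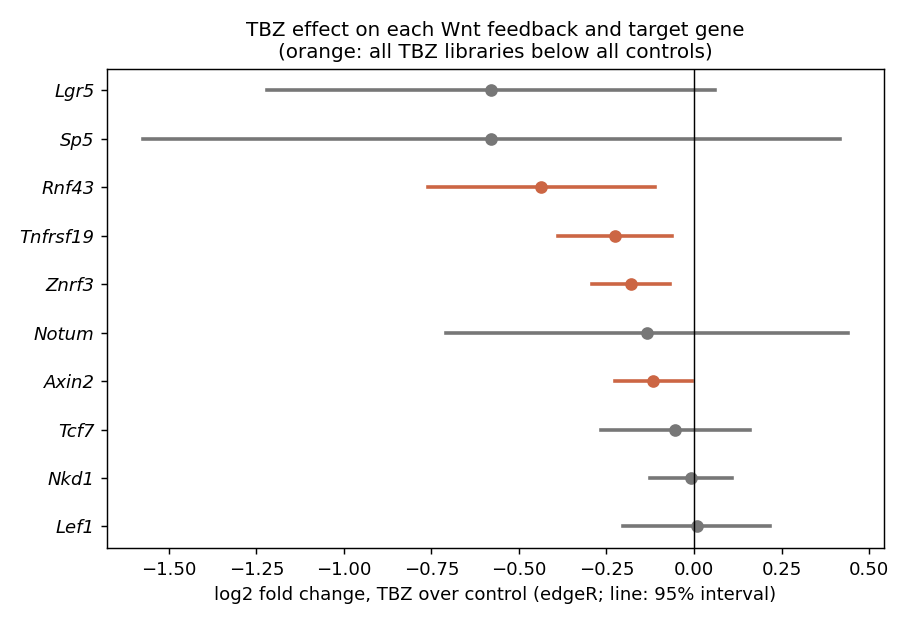
Log2 fold change of TBZ over control (x axis, edgeR) for each of the 10 genes (y axis), with 95% intervals as lines. Orange marks the 4 genes whose TBZ libraries all lie below all controls. Their intervals end below 0 before adjustment for the number of genes tested, and those of the other 6 include 0.

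Control replicate 3 and TBZ replicate 1 most often marked the ends of the pattern over libraries. TBZ replicate 1 was the lowest library for 5 of 10 members (15.8% of tested genes have it lowest). TBZ replicate 3 and control replicate 2 were each the lowest for 2 (17.0% and 14.5% of tested genes). Control replicate 3 was the lowest library for 0 of 10 members, though 24.3% of tested genes have it lowest, more than any other library. It was the highest library for 7 of 10 members (24.4% of tested genes have it highest, also more than any other). Axin2, Znrf3 and Lef1 were the exceptions: control replicate 3 was 0.962, 1.00 and 1.00 times the mean of the other controls for these 3 genes. Of the 7 genes with it highest, Tnfrsf19, Nkd1 and Tcf7 were little above the other controls (1.05, 1.06 and 1.19 times), while Rnf43, Lgr5, Notum and Sp5 were further above (1.40, 1.64, 1.84 and 2.61 times). Axin2 and Znrf3 were also the closest pair of members in library pattern. Their root mean square difference was 0.05 in log2 CPM, each set relative to its own mean over the 6 libraries. Genes outside the 10 lay closer to each, such as Chst3 to Axin2 (0.01) and Nampt to Znrf3 (0.02). Genes with small shifts are close by this measure.

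**Figure D3:**
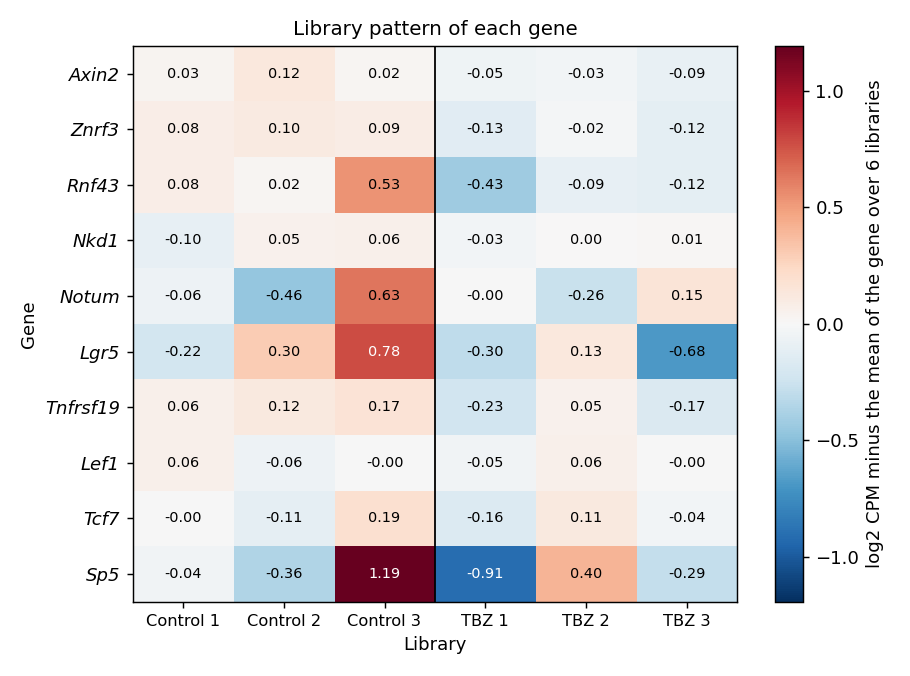
Log2 CPM of each gene (rows) relative to its own mean over the 6 libraries (columns), controls left and TBZ right of the line, red for higher and blue for lower. Sp5, Lgr5, Notum and Rnf43 are highest in control replicate 3 (1.19, 0.78, 0.63 and 0.53), where Axin2 and Znrf3 are at 0.02 and 0.09.

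Among the marker lists, 3 had their highest summed FPKM in control replicate 3: stomach and oesophagus, mesothelium, and neural crest and neurons. The sum of 15 intestinal genes was highest in control replicate 1, at 10.8 FPKM. This intestinal sum was 8.54 FPKM in control replicate 3 and 8.23 to 9.46 FPKM in TBZ. Summed over 22 stomach and oesophagus genes, the FPKM of control replicates 1 to 3 came to 123, 103 and 160, and that of TBZ replicates 1 to 3 to 75.4, 123 and 78.5. It was highest in control replicate 3 and lowest in TBZ replicates 1 and 3, and 12 of its 16 tested genes had a negative log2 fold change, with none past the edgeR threshold. The single gene of the list past it with DESeq2, the stomach mucosa gene Tff2, was higher in TBZ (edgeR log2 1.37, DESeq2 adjusted p = 0.0316), with all TBZ libraries above all controls. With no expression filter edgeR called 7 genes of the list (1.42% of genes). At an edgeR unadjusted p under 0.05, 4 were lower and 1 higher (4.54% and 5.08% of tested genes). Barx1, a factor of the stomach mesenchyme that is also on the mesenchymal list, made up 47.5% to 67.6% of the sum in each library. Without Barx1 the sum was 45.8, 36.02 and 84.2 FPKM in the controls and 26.6, 47.9 and 25.5 FPKM in TBZ, again highest in control replicate 3 and lowest in TBZ replicates 1 and 3. The stomach gene Tff1 and the lung and thyroid factor gene Nkx2-1 of that list had no read. The sum of 12 mesothelial genes ran the same way, from 188 to 248 FPKM in controls and from 164 to 210 FPKM in TBZ. Of its 11 tested genes, 10 were negative and none passed the threshold. Podxl made up 26.9% to 30.9% of the mesothelial sum, which without it was still highest in control replicate 3 (181 FPKM). Krt19, also on the pan-epithelial list, had 51.4 FPKM in control replicate 3 and 22.4 to 25.7 FPKM elsewhere. Neural crest and neuron genes, 10 in number, also had their highest sum in control replicate 3, at 59.0 FPKM. The other 5 libraries had 41.5 to 46.2 FPKM. Tubb3 made up 39.0% to 44.1% of the neural sum, which without it was again highest in control replicate 3 (34.9 FPKM). Whether the tissues of these 3 lists had a part in the values of Sp5, Lgr5, Notum, Rnf43 and Tnfrsf19 was not tested. For Rnf43 and Tnfrsf19 the measured fact is that the log2 fold change without control replicate 3 was -0.26 and -0.20, and for Axin2 and Znrf3 it was -0.13 and -0.18, against -0.12 and -0.18 with all libraries.

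**Figure D4:**
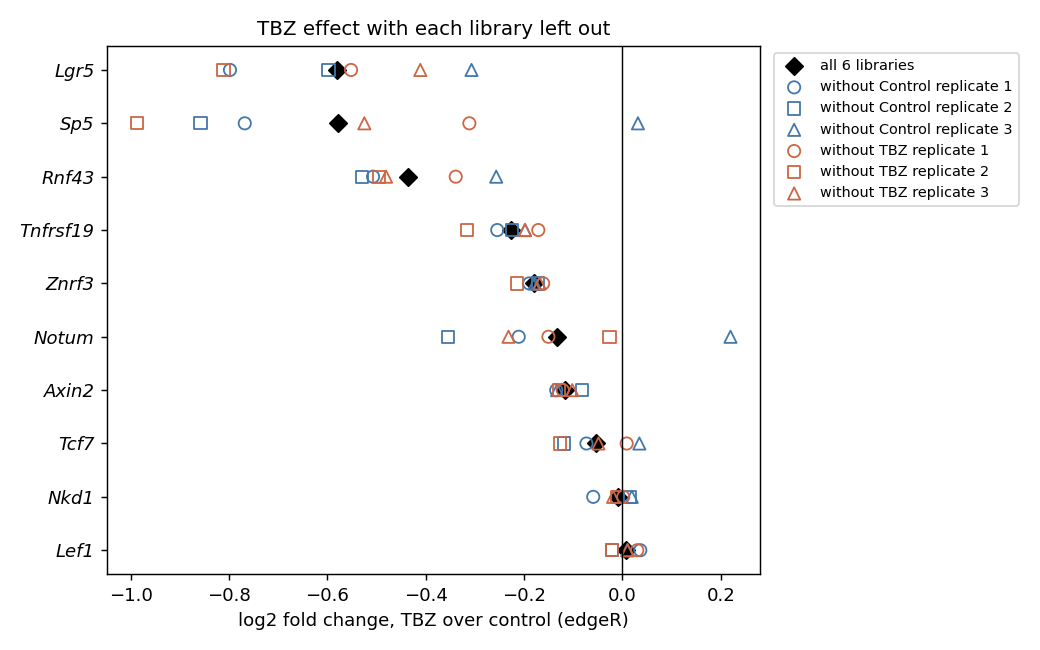
Log2 fold change of TBZ over control (x axis, edgeR) for each gene (y axis) with all 6 libraries (black) and with each library left out in turn (open symbols, blue for controls and orange for TBZ). Znrf3 stays between -0.21 and -0.16, while Sp5 runs from -0.99 to 0.03.

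The other marker lists were as follows. All 14 pancreatic progenitor genes were detected and had positive log2 fold changes (median 0.27), so the markers of the labelled tissue were present. Cpa1 passed the edgeR threshold (0.187% of all tested genes did), and DESeq2 and the authors' deposited table each called 5 of the 14, Pdx1, Nkx6-1, Nkx2-2, Gata4 and Cpa1, all higher in TBZ (1.43% and 0.767% of genes). With no expression filter edgeR called 8 (1.42% of genes). Their summed FPKM, mostly Cpa1, was 748 to 825 in controls and 990 to 1100.0 in TBZ. Pan-epithelial genes had 18 of 23 tested members above 0 (median 0.10), mesenchymal genes 9 of 20 (-0.02), endothelial genes 8 of 10 (0.06), intestinal genes 4 of 9 (-0.05) and neural crest and neuron genes 1 of 10 (-0.16), with none past the edgeR threshold in these 5 lists. DESeq2 called 1 pan-epithelial gene (Cdh1, log2 0.27) and 1 mesenchymal gene (Thy1, 0.42), both higher in TBZ. Depth was 35825033 to 50620936 counted reads per library.

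The start regions of 3 members are given as examples of the TCF/LEF motif, picked by their spread over libraries and their matches. Any link between the motif and the levels given above was not tested. RefSeq start windows on GRCm38.p6 (250 bases before and 50 after a start) matched 7 of the 10 members, with 13 windows. The core CTTTGA, searched on both strands, was in windows of 3 members (Sp5, Lef1 and Tnfrsf19), and the longer CTTTGAT, which contains it, in those of 2 (Sp5 and Tnfrsf19). That is 3 of the 13 windows for CTTTGA and 2 of the 13 for CTTTGAT. Over all 32851 windows, 16.0% held CTTTGA, 1.73% held it at least 2 times and 3.73% held CTTTGAT, and over genes 18.2% held CTTTGA and 4.29% CTTTGAT at any start. A match describes these letters only and is not a binding site. The 250 bases before the start are shown for Sp5, which spread the most over libraries and has 2 matches, for the inner start of Tnfrsf19, with 1 match on the opposite strand, and for Axin2, which has none and has the smallest ratio of highest to lowest library (1.16) among the 4 genes with separate groups. Capitals mark CTTTGA or, where it lies on the opposite strand, its reverse complement.
Sp5 (chr2:70474673-70474922, + strand, between genes): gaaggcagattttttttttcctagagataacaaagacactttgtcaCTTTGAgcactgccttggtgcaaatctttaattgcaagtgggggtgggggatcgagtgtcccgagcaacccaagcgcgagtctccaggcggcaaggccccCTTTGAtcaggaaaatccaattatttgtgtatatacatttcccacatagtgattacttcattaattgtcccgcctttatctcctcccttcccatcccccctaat
Tnfrsf19 (chr14:61037988-61038237, - strand, inside the gene and over an exon of Gm41168 on the opposite strand): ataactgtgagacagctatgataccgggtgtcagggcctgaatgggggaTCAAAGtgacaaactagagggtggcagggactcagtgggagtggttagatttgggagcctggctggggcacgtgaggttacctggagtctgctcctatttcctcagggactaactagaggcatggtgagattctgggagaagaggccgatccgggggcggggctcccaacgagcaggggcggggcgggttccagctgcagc
Axin2 (chr11:108920099-108920348, + strand, between genes): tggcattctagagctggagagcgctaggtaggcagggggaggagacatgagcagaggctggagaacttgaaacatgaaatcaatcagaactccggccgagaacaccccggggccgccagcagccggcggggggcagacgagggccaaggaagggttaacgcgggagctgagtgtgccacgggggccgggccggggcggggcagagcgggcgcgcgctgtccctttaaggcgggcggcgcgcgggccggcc
The matches in Sp5 begin 204 and 104 bases before the start, and the second is also a CTTTGAT. In Axin2 no match in this window says nothing of sites elsewhere in the gene. Lef1, whose ratio of highest to lowest library (1.09) was the smallest of the 10, has 2 matches in 1 of its 4 windows, at a start inside the gene.

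The 10 genes are spread unevenly over the genome (mm10). Axin2 (position 108920349 to 108950783), Znrf3 (5276324 to 5444847), Rnf43 (87662722 to 87735539), Notum (120653788 to 120661175) and Tcf7 (52252371 to 52283014) lie on chromosome 11. Lgr5 lies on chromosome 10 (115450311 to 115587780), Tnfrsf19 on 14 (60963875 to 61046490), Nkd1 on 8 (88521354 to 88594884), Lef1 on 3 (131110471 to 131224356) and Sp5 on 2 (70474923 to 70477729). All 10 are protein-coding, and these positions span exons and introns. Besides Notumos, the overlapping genes with the most reads were A630014C17Rik at Tcf7 (at most 43 reads) and Gm43352 at Lef1 (at most 19), both antisense.

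Beyond these 10, other genes of the pathway were read from 6 lists with 95 symbols, of which 83 were tested. None passed with edgeR (0.187% of all tested genes did) or with DESeq2, and none passes in the authors' deposited table. At an unadjusted p under 0.05, 5 were higher and 9 lower (5.08% and 4.54% of all tested genes were). With no expression filter 5 passed (Wnt7b, Rspo1, Rspo2, Sfrp1 and Sfrp2), where 1.42% of all genes did. In all, 47 were above 0 and 36 below, with a median of 0.02. All TBZ libraries lay above all controls in 8 of the 83 and below them in 7 (7.03% of tested genes lay below). The share of tested genes with all TBZ libraries above was not counted.

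Of 14 tested Wnt ligands 9 were below 0 (median -0.08). Wnt5a, mostly a ligand of beta-catenin-independent signalling, was the most expressed at 14.4 FPKM (log2 -0.12, edgeR adjusted p = 0.562), followed by Wnt2b at 10.9 FPKM (-0.12) and Wnt7b at 10.0 FPKM. Wnt7b, an epithelial ligand, went the other way: it had 49.5, 41.9 and 41.8 CPM in the controls and 52.5, 50.1 and 60.2 CPM in the TBZ libraries. All its TBZ libraries were above all controls, and its log2 fold change was 0.29 ± 0.09 (SE; edgeR adjusted p = 0.300). Wnt1, Wnt2, Wnt3a, Wnt8a and Wnt8b did not pass the filter on low counts.

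Among genes of ligand secretion and the R-spondins, 4 of 6 were below 0 (median -0.09). Wls, which carries Wnt ligands to the cell surface, had a level of 22.7 FPKM and a log2 fold change of -0.08, and Rspo3 had 9.55 FPKM and -0.09. Rspo1, an R-spondin ligand of the Lgr receptors, had 10.9, 11.004 and 17.5 CPM in the controls and 6.37, 10.97 and 7.46 CPM in the TBZ libraries. It was highest in control replicate 3 and lowest in TBZ replicates 1 and 3, as were the stomach and mesothelial sums, whose part in this was not tested. Its log2 fold change was -0.67 ± 0.23 (SE; edgeR adjusted p = 0.395). Rspo2, named after its values were seen, reached 3.47 CPM in control replicate 3, while the other 5 libraries held 0.712 to 1.13 CPM.

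Receptors had a median nearer to 0, while single genes ran from -0.11 to 0.33. Of 17 tested receptor genes 11 were above 0 (median 0.04), and the most expressed were Fzd2 (40.1 FPKM, log2 0.02), Ryk (39.6 FPKM, 0.01) and Fzd1 (21.9 FPKM, -0.08). The beta-catenin core had 13 of 21 above 0 (median 0.04), within -0.14 and 0.13. Ctnnb1, which encodes beta-catenin itself, had 216 FPKM and a log2 fold change of 0.04 ± 0.03 (SE; edgeR adjusted p = 0.758), and the kinase gene Csnk1a1 and the co-activator gene Pygo2 had 0.07 and 0.00.

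Secreted antagonists had 7 of 11 below 0 (median -0.13). Sfrp1, which binds Wnt ligands outside the cell, was the most expressed at 68.2 FPKM. Sfrp1 was measured at 327, 335 and 300.03 CPM in the controls and at 257, 311 and 263 CPM in the TBZ libraries, with TBZ replicate 2 inside the control range and a log2 fold change of -0.21 ± 0.07 (SE; edgeR adjusted p = 0.404). Kremen1, a receptor of Dkk proteins, had a log2 fold change of 0.04, and Sfrp2 had -0.39 (edgeR adjusted p = 0.492). Sfrp2 was highest in control replicate 3 (29.6 CPM), and its TBZ replicate 2 (19.8 CPM) lay above control replicate 1 (18.4 CPM).

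Of 14 other target genes 12 were above 0, with a median of 0.11. At an unadjusted p under 0.05 they were balanced, with 2 higher (Myc and Amotl2) and 2 lower (Ascl2 and Ephb3). The transcription cofactor gene Lbh was at 92.9 FPKM (log2 0.12), the cell cycle gene Ccnd1 at 39.6 FPKM (0.07) and Myc at 25.6 FPKM. Myc, a growth regulator with many inputs besides Wnt, had 63.1, 63.4 and 69.6 CPM in the controls and 72.7, 75.4 and 73.6 CPM in the TBZ libraries. All its TBZ libraries were above all controls, with a log2 fold change of 0.18 ± 0.05 (SE; edgeR adjusted p = 0.267). Ascl2, a stem cell factor of the intestine, had all TBZ libraries below all controls and the largest difference of the list (log2 -0.37, edgeR adjusted p = 0.363), and the receptor gene Ephb3 had -0.15 (0.442). Amotl2, Ascl2 and Ephb3 were named after their values were seen. The difference between the 2 groups of targets was not tested.

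**Figure D5:**
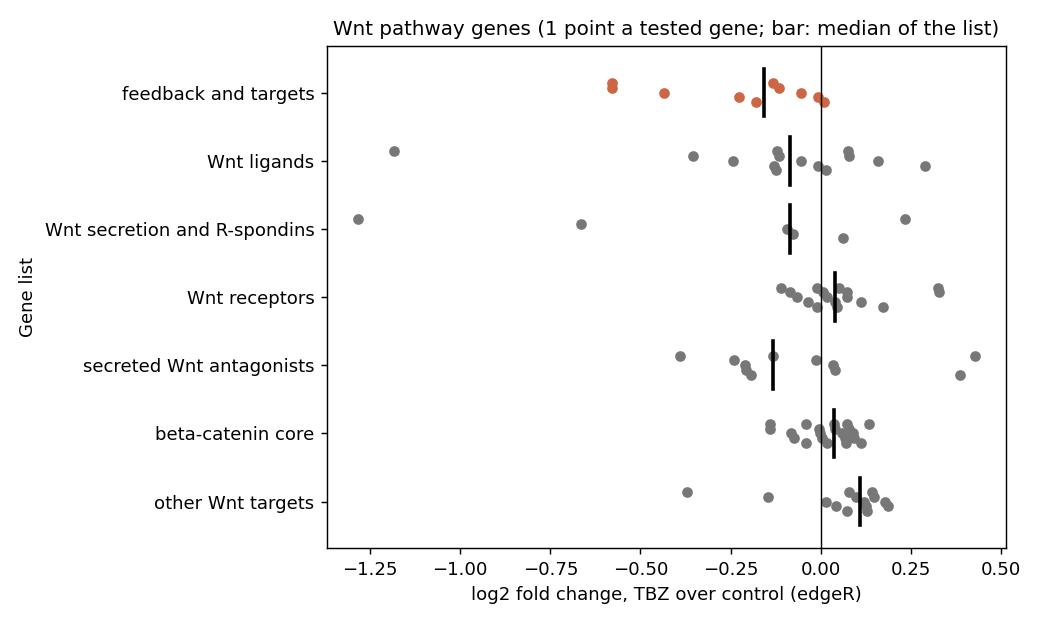
Log2 fold change of TBZ over control (x axis, edgeR), 1 point for each tested gene, by list (y axis), with the median as a bar. The 10 feedback and target genes (orange) have a median of -0.16, and the other Wnt targets one of 0.11. No gene shown passed the edgeR threshold.

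Genes with a library pattern close to that of Axin2 were sought among 12109 other protein-coding genes with a mean of at least 1 FPKM. The nearest were Chst3, Impact, Zfp397, Cerk and Rhobtb1, with root mean square differences of 0.01 to 0.02 in log2 CPM over the 6 libraries. This describes likeness of small shifts only, and so many genes compared over 6 libraries give some close matches to any pattern. None of the 3 nearest genes of any other member was itself one of the 10. Lef1, Sp5 and Lgr5 have means under 1 FPKM, so the search could not return them. With 3 places among so many genes, the absence of members says little about whether they share a pattern.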

How the data were processed

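RNA was enriched for poly-A transcripts and made into libraries with a kit that does not mark strand, per the labels' protocols. Per the submitters' processing notes, STAR and HTSeq were used on mm10, with versions not given in the sources used here. The read count columns were deposited by the authors without normalization. The authors derived FPKM from these counts, the gene length and the library total. The signal columns are the authors' group means of scaled counts, and the log2 fold change and p-value columns are from the authors' deposited comparison, whose tool is not given in the sources used here.

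Counts of 18226 genes (filterByExpr, of 31250 with a read) were tested with edgeR 4.0.16 (quasi-likelihood, TMM) in R 4.3.3, Benjamini-Hochberg adjusted over all tested genes, at 0.05. Each SE was derived from the log2 fold change and its F statistic, and 95% intervals use the matching t quantile. Alternatives were DESeq2 1.42.0, RLE scaling, no filter, a replicate block, limma 3.58.1 on log2(FPKM + 0.1, 0.5 or 1), and each library left out. The scripts were tested on simulated data. Members and lists were chosen with earlier results of these data known. All 10 members are named, from each other list the 3 with the highest FPKM and any called gene, and others after their values were seen. Promoters are from RefSeq (GRCm38.p6).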

Additional observations from a re-analysis of the deposited data

How the results depend on the processing

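No member passed in 13 of 14 alternatives; with no expression filter 2 passed (Rnf43 and Tnfrsf19), as did 5 other Wnt pathway genes, which otherwise also had 0. The count of changed genes over the whole table was 34, and 222 with DESeq2, 445 with no filter, 13, 14 and 4 with limma on log2(FPKM + 0.5), log2(FPKM + 0.1) and log2(FPKM + 1), and 0 with limma and no filter. It was 5 to 36 with 1 library left out, the lowest counts being 5 with TBZ replicate 3 omitted, 11 with TBZ replicate 1 omitted and 13 with control replicate 2 omitted. The replicate number as a block gave 5 genes and no member; same-numbered libraries did not deviate together (correlations 0.00, -0.15 and -0.08) and none correlated best with its own number. The cause of these differences was not tested.

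Of 140 alternative log2 fold changes of members, 129 kept direction and call, 2 gained the call and 9 reversed, all with a library left out: Nkd1 ran from -0.059 to 0.019, Notum from -0.35 to 0.22, Lef1 from -0.022 to 0.036, Sp5 from -0.99 to 0.032 and Tcf7 from -0.13 to 0.034. Axin2, Znrf3, Rnf43, Tnfrsf19 and Lgr5 were negative in all 14. The count of members with a negative value was 5 to 10 with 1 library left out, 5 being without control replicate 3, and 9 in the other alternatives. The number of members with all TBZ libraries below all controls was 4 to 6 with 1 library left out. Leaving a library out can only keep or raise this number, so it does not test the separation. Both counts were added after the data were seen. Depth limits Sp5 and Lgr5, with 33 to 151 reads per library.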
